A study of Mus musculus with 5 samples.

Results

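The miR-335 hairpin lies within an intron of Mest and gives a mature microRNA (miRNA) from each of its arms, mmu-miR-335-5p and mmu-miR-335-3p, miR-335-5p and miR-335-3p below. Both were taken by name from the deposited tag files, where they are 2 of the 593 miRNA names with a count. They were chosen by values of these same libraries, and which values is not recorded. The choice is taken here to rest on the high level of miR-335-5p in culture against the fresh cells. The levels in culture are therefore a description without a test. If other values were in view, the tests between the fresh fractions are not independent of the choice either. Small RNA had been sequenced from testis cells of C57BL/6 mice, sorted with magnetic beads carrying a Thy1.2 antibody. Thy1 lies on the surface of spermatogonial stem cells, which sustain sperm production, and serves to enrich them. One library came from an enriched germ cell culture, which had been started from Thy1+ cells and carried for about 10 passages. The retained Thy1+ fraction and the depleted Thy1- fraction had 2 libraries each, both freshly isolated. The Thy1- titles call these cells somatic-enriched, although their cell type label repeats the stem cell name. Whether replicates are separate animals is not stated in the labels, and p-values then measure only the spread between these samples, which may be technical. The labels name an original and a v1.5 Illumina small RNA protocol without saying which library had which.

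A miRNA hairpin is cut by Drosha and then Dicer into a duplex of its 5p and 3p arms, and an Argonaute protein keeps one strand of it. The kept strand finds its target messages mainly through its seed, bases 2 to 8, so both arms of a hairpin can act on different genes. Mest, also called Peg1, is an imprinted gene that is expressed from the paternal copy and is active in tissues of mesodermal origin. Imprinting marks are erased and laid down anew in the germ line. In human breast cancer cells, miR-335 is known as a suppressor of metastasis.

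The hairpin occupies chr6:30741299-30741396 on the plus strand of GRCm38.p6, 98 bases in RefSeq. Mest itself spans chr6:30723547-30748465 on the same strand, with 11 transcripts in the GENCODE M21 annotation. Of these, 7 span the hairpin, and in all 7 it is intronic, with no exon overlapping it. The hairpin is shown first with both mature arms in capitals, then each arm with its seed in capitals, since the arms and their seeds are what the reads below distinguish.
miR-335 hairpin: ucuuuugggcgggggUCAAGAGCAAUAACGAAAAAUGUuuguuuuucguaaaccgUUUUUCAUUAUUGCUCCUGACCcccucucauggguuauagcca
miR-335-5p: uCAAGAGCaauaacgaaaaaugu
miR-335-3p: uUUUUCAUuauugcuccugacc

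The 5p arm is 23 bases long and runs from 30741314 to 30741336 on chromosome 6. The 3p arm, 22 bases long, runs from 30741354 to 30741375. In the predicted minimum free energy fold of -44.3 kcal/mol, 18 bases of the 5p arm pair with 18 bases of the 3p arm, and 17 bases separate the arms. The seeds differ, CAAGAGC in the 5p arm and UUUUCAU in the 3p arm. No other name among 1679 mature mouse miRNAs in the RefSeq table carries either seed, so neither arm has a seed family there.

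The libraries held 5110007 miRNA reads in culture, 937002 and 947687 in Thy1+ cells, and 2548234 and 4909753 in Thy1- cells, giving replicate 1 before replicate 2 here and below. Reads of both miR-335 arms numbered 11158 in culture, 833 and 961 in Thy1+ cells, and 1326 and 1899 in Thy1- cells. No tag of either arm was shared with another miRNA name. Levels are counts per 1000000 miRNA reads (CPM), with exact Clopper-Pearson (binomial) intervals at 95% where given. Those intervals cover counting error only, because the reads carry no molecular identifiers.

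The 5p arm was most abundant in culture and overlapped between the fresh fractions, whereas the 3p arm was higher in Thy1+ than in Thy1- cells by a log2 fold change of 2.80 ± 0.67 (SE, n = 2 each). The direct tests of a difference between the arms, given with the arm share, did not pass. Reads of the 3p arm formed most miR-335 reads in 1 Thy1+ library and a minority in each of the other libraries. Because these are bulk samples, fewer cells of a type and less RNA per cell cannot be told apart.

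miR-335-5p had 2064 CPM in culture (10549 reads, interval 2025 to 2104). It had 271 and 732 CPM in Thy1+ cells (254 and 694 reads) and 480 and 337 CPM in Thy1- cells (1223 and 1656 reads). The culture stood above all 4 fresh libraries, and the Thy1+ libraries lay on either side of both Thy1- libraries. By abundance the 5p arm ranked 49 in culture, 169 and 129 in Thy1+ cells, and 133 and 131 in Thy1- cells. The mean was 502 ± 326 CPM in Thy1+ cells and 409 ± 101 CPM in Thy1- cells (SD, n = 2 each). The order of these means is not separated from their spread: edgeR gave a log2 fold change of -0.30 ± 0.56 (SE) for Thy1+ against Thy1- (adjusted p = 0.712). Its sign turned to 0.30 when libraries were scaled to total counts, and to 0.14 without Thy1+ replicate 1.

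miR-335-3p had 119 CPM in culture (609 reads, interval 110 to 129). It had 618 and 282 CPM in Thy1+ cells (579 and 267 reads), against 40.4 and 49.5 CPM in Thy1- cells (103 and 243 reads). Both Thy1+ libraries were above the culture, which was above both Thy1- libraries. The 3p arm ranked 149 in culture, 127 and 187 in Thy1+ cells, and 270 and 240 in Thy1- cells. The mean was 450 ± 238 CPM in Thy1+ cells and 45.0 ± 6.42 CPM in Thy1- cells (SD, n = 2 each), a ratio of means of 10.0, with ratios of single libraries between 5.69 and 15.3.

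**Figure D1:**
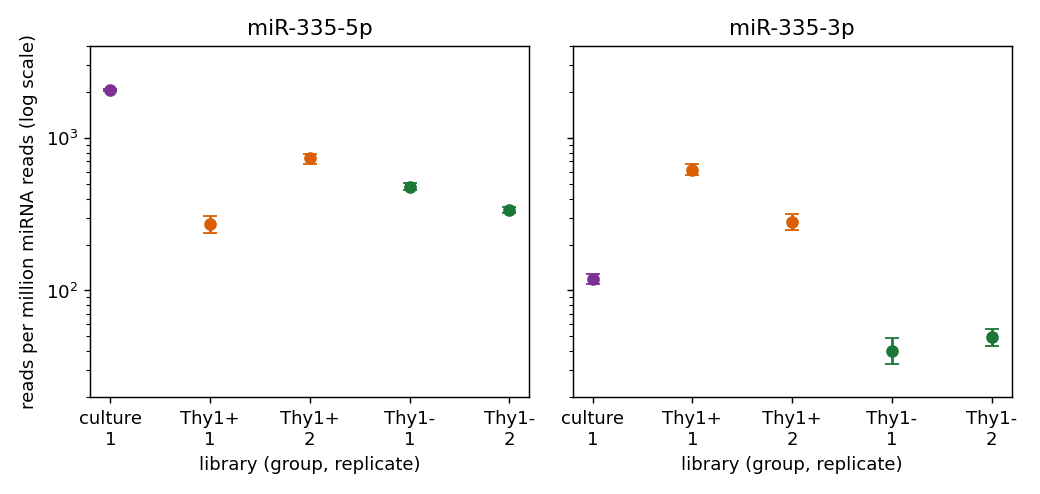
Level of each miR-335 arm in every library, in CPM on a log axis, with points for libraries and bars for exact Clopper-Pearson intervals at 95%. miR-335-5p is highest in culture at 2064 CPM and overlaps between the fresh fractions, while miR-335-3p is at 618 and 282 CPM in Thy1+ cells and at 40.4 and 49.5 CPM in Thy1- cells.

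In the edgeR fit over 425 miRNA names of the fresh libraries, miR-335-3p passed the test for Thy1+ against Thy1- (adjusted p = 0.0252, with a log2 fold change of 2.80 and both Thy1+ libraries higher). Of the 2 arms, 1 was thus called, and 1 of 2 was called higher, where 28.2% of all tested names were called and 20.5% were called higher in Thy1+ cells. A further 7.76% were called lower in Thy1+ cells. Ordered by log2 fold change from the highest, the 3p arm was number 34 of 425 and the 5p arm number 240. The 3p call rests on both Thy1+ libraries: the log2 fold change was 1.91 without Thy1+ replicate 1 (adjusted p = 0.148) and 3.38 without Thy1+ replicate 2 (adjusted p = 0.0979). With either Thy1+ library left out, edgeR called 0 names in all, with 111 and 108 names at an unadjusted p under 0.05. Changes are relative to the bulk of miRNAs, since the median over all names shifted by 0.56 on the log2 scale with total counts as the scaling.

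Set against the fresh Thy1+ libraries, the culture held 4.11 times the mean 5p level, with ratios to single libraries of 2.82 and 7.62. For the 3p arm the ratio was 0.265, with 0.193 and 0.423 against single libraries. Relative to Thy1- cells the culture held 5.05 times the mean 5p level and 2.65 times the mean 3p level. The single culture library has no replicate, and these ratios compare that library with the fresh ones.

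On the TMM scale, which sets the bulk of miRNAs level, the log2 fold change of culture against Thy1+ was 3.75 for the 5p arm and -0.31 for the 3p arm. Against Thy1- it was 3.40 for the 5p arm and 2.43 for the 3p arm. With total counts as the scaling, the median of all names shifted by -1.65 against Thy1+ and by -1.04 against Thy1-. On total counts the values against Thy1+ were 2.04 for the 5p arm and -1.92 for the 3p arm. The sign for the 3p arm turned to 0.52 without Thy1+ replicate 1. Over all 470 names in that fit, 22.3% were called in culture against Thy1+ and 34.9% in culture against Thy1-.

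The reads of both arms together came to 2184 CPM in culture, 889 and 1014 CPM in Thy1+ cells, and 520 and 387 CPM in Thy1- cells. The Thy1+ libraries were close to each other in this sum, although each arm differed more than 2-fold between them, in opposite directions. The sum averaged 952 ± 88.4 CPM in Thy1+ cells and 454 ± 94.5 CPM in Thy1- cells (SD, n = 2 each), a ratio of 2.10, with no overlap between the fractions. This ratio is on total counts, and the sum was not fitted on the TMM scale. Relative to that scale, total counts shifted the median over all names by 0.56 in log2 toward Thy1+ cells.

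The share of the 5p arm among reads of both arms was 94.5% in culture (exact Clopper-Pearson interval 94.1 to 94.96). It was 30.5% (27.4 to 33.7) and 72.2% (69.3 to 75.03) in Thy1+ cells. In Thy1- cells it was 92.2% (90.7 to 93.6) and 87.2% (85.6 to 88.7). Both Thy1+ libraries were thus below every other library, and they differed from each other by more than their counting error. The mean share was 51.4 ± 29.5% in Thy1+ cells and 89.7 ± 3.56% in Thy1- cells (SD, n = 2 each), a difference of -38.4 percentage points. A two-sided exact permutation test gave p = 0.33, the smallest that 2 against 2 libraries allow (adjusted p = 0.778 over 7 measures of the arms and read ends). The difference was -17.5 points without Thy1+ replicate 1 and -59.2 points without Thy1+ replicate 2.

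**Figure D2:**
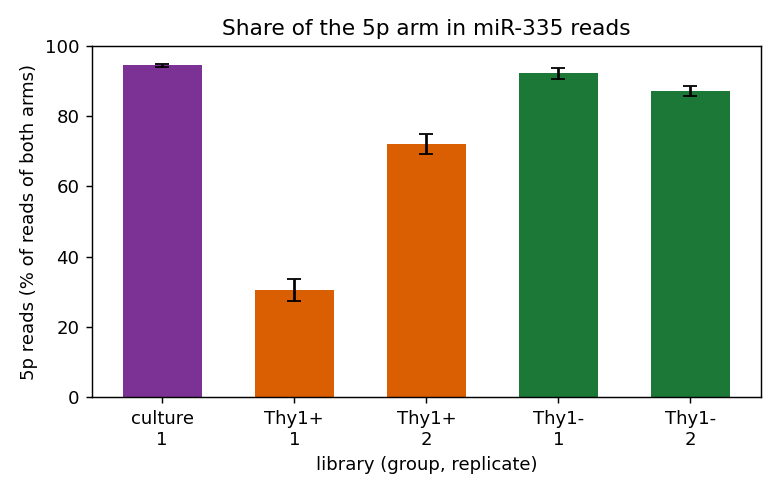
Share of the 5p arm in the reads of both miR-335 arms, in percent per library, with bars for exact 95% Clopper-Pearson intervals. The Thy1+ libraries are at 30.5% and 72.2%, while the culture is at 94.5% and the Thy1- libraries are at 92.2% and 87.2%.

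This arm balance could be set beside that of other hairpins. The log2 ratio of miR-335-5p to miR-335-3p reads, with 0.5 added to each count, was -1.19 and 1.38 in Thy1+ cells and 3.56 and 2.77 in Thy1- cells. The difference between the fractions was -3.07 ± 0.91 (SE). With all 4 fresh libraries it was the largest in size among the 118 hairpins that had a mean of at least 10 counts on both arms in the fresh libraries, where the median size was 0.474. For the others the ratio was the 5p arm over the 3p arm or, in the older naming, the arm without an asterisk over the one with it. The next was miR-200a, at -2.28, followed by miR-292 at 2.01. That place depended on single libraries, in a comparison added after the data were seen. Without Thy1+ replicate 1 the miR-335 difference was -1.79, number 9 of 118, and miR-200a led with -3.09. Without Thy1- replicate 1 it was -2.67, number 2 behind miR-31 at -2.97. It remained the largest in size without Thy1+ replicate 2 (-4.35) and without Thy1- replicate 2 (-3.47). In a limma fit over these hairpins, added after the data were seen, miR-335 had an adjusted p of 0.592. That fit called 0 of the 118 hairpins, 0%, with 8 at an unadjusted p under 0.05.

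**Figure D3:**
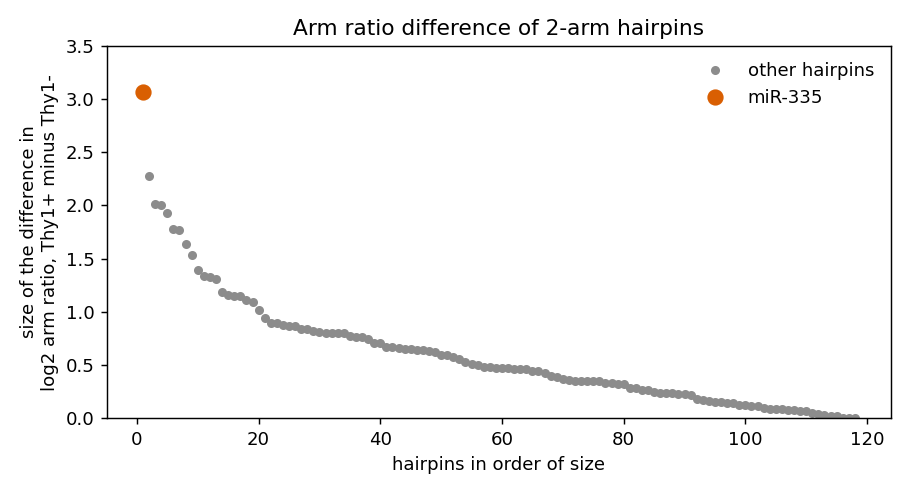
Size of the difference in the log2 ratio of one arm to the other, Thy1+ minus Thy1-, for 118 hairpins with reads on both arms, in order of size, with miR-335 as the large point. With all 4 fresh libraries miR-335 has the largest difference, 3.07 in size, against 2.28 for miR-200a and a median of 0.474, but without Thy1+ replicate 1 it is 1.79 in size and number 9.

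The ends of the reads show which molecules each arm gave. The tag files hold 15 to 25 base tags placed within the mature ends, so forms that run past either end are not seen. Seeds are again in capitals in the leading tags of each arm, written as DNA as in the files. The last 5p tag is a rarer one, with a mean of 1.13% of 5p reads over the 5 libraries. It begins at base 3 and therefore carries another seed.
5p, whole: tCAAGAGCaataacgaaaaatgt
5p, to base 22: tCAAGAGCaataacgaaaaatg
5p, to base 21: tCAAGAGCaataacgaaaaat
3p, whole: tTTTTCATtattgctcctgacc
5p, from base 3: aAGAGCAAtaacgaaaaatgt

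The 5p arm was ragged at its 3′ end in all 5 libraries. Its whole tag had 3936 reads in culture, 77 and 264 reads in Thy1+ cells, and 440 and 560 reads in Thy1- cells. The tag that stops at base 22 was about as frequent, with 3907 reads in culture, 79 and 268 reads in Thy1+ cells, and 406 and 455 reads in Thy1- cells. Of all 5p reads, 42.1% reached base 23 in culture, 34.4% and 43.7% in Thy1+ cells, and 40.9% and 40.2% in Thy1- cells. For comparison, over 189 names with at least 100 reads in every library, the median share reaching the last base was between 68.2% and 74.2% per library. Counted from the lowest share among these names, the 5p arm was number 36 in culture, 31 and 38 in Thy1+ cells, and 40 and 42 in Thy1- cells. Reads ending at base 21 made up 14.9% in culture, 28.1% and 9.94% in Thy1+ cells, and 17.2% and 19.8% in Thy1- cells, so the Thy1+ libraries enclosed all others.

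The 3p arm was more uniform. Its whole tag had 486 reads in culture, 443 and 174 reads in Thy1+ cells, and 77 and 179 reads in Thy1- cells. Of all 3p reads, 88.8% reached base 22 in culture, 86.2% and 81.3% in Thy1+ cells, and 85.4% and 86.4% in Thy1- cells. The exact permutation tests of Thy1+ against Thy1- gave p = 1 for this end measure of the 5p arm and p = 0.667 for that of the 3p arm, with differences of -1.51 and -2.20 percentage points.

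**Figure D4:**
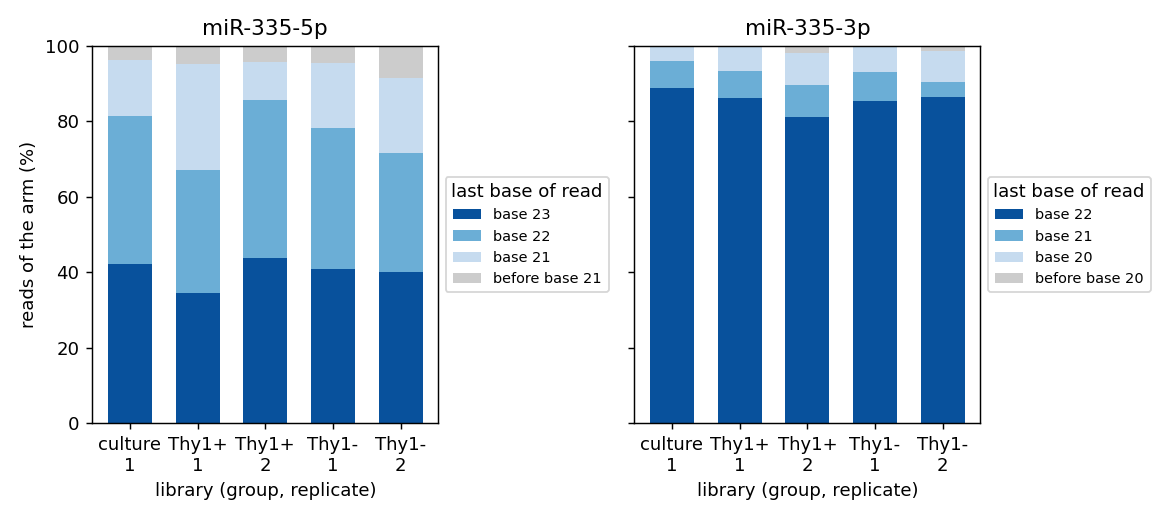
Last base of the reads of each miR-335 arm, as a percentage of the reads of that arm in each library, counted from the first base of the mature sequence. The 5p reads divide mainly between bases 23, 22 and 21, with 34.4% to 43.7% reaching base 23, while 81.3% to 88.8% of 3p reads reach base 22.

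Starts were more exact. At base 1 began 98.6% of 5p reads in culture, 99.2% and 92.8% in Thy1+ cells, and 98.4% and 91.9% in Thy1- cells. For the 3p arm these shares were 99.0% in culture, 98.6% and 96.6% in Thy1+ cells, and 99.0% and 97.5% in Thy1- cells. Replicate 2 of each fresh fraction was thus lower than replicate 1 on both arms. The exact permutation test of Thy1+ against Thy1- gave p = 0.667 for each arm.

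In all 5 libraries, most 5p reads that did not begin at base 1 began at base 3, which moves the seed to AGAGCAA, a seed that no other RefSeq mouse name carries. They were 81 of 10541 placed reads in culture, or 0.768%. In Thy1+ cells they were 2 of 253 and 33 of 694, or 4.76% in replicate 2. In Thy1- cells they were 15 of 1223 and 110 of 1655, or 1.23% and 6.65%. Replicate 2 was the higher of each fraction, and the fractions were not separated. Among the 189 names the 5p arm ranked 7 in this share in culture, 11 and 4 in Thy1+ cells, and 6 and 4 in Thy1- cells. The replicate 2 libraries also had the higher median share over those names, 0.0768% in Thy1+ and 0.102% in Thy1- cells, with 0.0106% in Thy1+ replicate 1 and 0.0309% in Thy1- replicate 1. The part of this library difference in the miR-335 values was not tested.

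Some reads differed from the mature sequence. Substitutions are written with the mature base first, the position counted from 1 at the 5′ end of the mature sequence, then the base of the read. The most frequent on the 5p arm was T23A, with 191 reads of the tag that is otherwise whole in culture, 3 and 4 reads in Thy1+ cells, and 9 and 19 reads in Thy1- cells. The next on the 5p arm lay within the seed, C8A, with 39 reads over all tags in culture, 1 and 3 in Thy1+ cells, and 8 and 4 in Thy1- cells. C8T had 13 reads in culture, 0 and 0 in Thy1+ cells, and 4 and 2 in Thy1- cells, and C8G had 12 in culture, 0 and 1 in Thy1+ cells, and 3 and 2 in Thy1- cells. In Thy1- replicate 1 these base 8 changes together outnumbered T23A. On the 3p arm the leading ones over all tags were C22A and C22T. C22A had 14 reads in culture, 10 and 6 in Thy1+ cells, and 5 and 8 in Thy1- cells. C22T had 10 reads in culture, 17 and 6 in Thy1+ cells, and 1 and 8 in Thy1- cells. The tags are printed with the differing base in capitals.
5p, T23A: tcaagagcaataacgaaaaatgA
3p, C22A: tttttcattattgctcctgacA
3p, C22T: tttttcattattgctcctgacT

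Of 5p reads, 2.50% differed at their last base in culture, 1.58% and 1.01% in Thy1+ cells, and 1.55% and 1.99% in Thy1- cells. The 3p arm had 4.11% in culture, 4.84% and 5.24% in Thy1+ cells, and 5.83% and 6.996% in Thy1- cells. Averaged over the other bases, base 8 included, the rate per base was between 0.158% and 0.253% on the 5p arm and between 0.141% and 0.727% on the 3p arm, below the last-base rate in each library. The fractions overlapped on the 5p arm, while on the 3p arm both Thy1+ libraries were below both Thy1- libraries. The exact permutation test of Thy1+ against Thy1- gave p = 0.667 for the 5p arm and p = 0.33 for the 3p arm.

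The names with the nearest pattern over the 5 libraries differed between the arms. Nearness was the root mean square difference of log2(CPM + 1), each name centred on its own mean, over 232 names with a mean of at least 100 CPM. The search included the culture, whose 5p level is taken to have set the choice of the arms. A shared high there is no separate result. For the 5p arm these were miR-125b-3p (0.498), miR-23a (0.599), miR-214 (0.601), miR-221 (0.643) and miR-31 (0.650), against a median of 1.67 over all names. miR-214, a miRNA of mesenchymal cells, had 163 CPM in culture, 43.8 and 125 CPM in Thy1+ cells, and 83.2 and 98.0 CPM in Thy1- cells. Like the 5p arm it was highest in culture and lowest in Thy1+ replicate 1. The other names, miR-125b-3p, miR-23a, miR-221 and miR-31, were also highest in culture, but each was lowest in a Thy1- library.

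For the 3p arm, looked up after its values had been seen, the nearest was miR-880 (0.190), a member of the X-linked miRNA cluster of mouse testis. It had 8749 CPM in culture, 46186 and 20989 CPM in Thy1+ cells, and 4286 and 4219 CPM in Thy1- cells. The next was the group of miR-466a, miR-466b, miR-466c and miR-466e 3p products (0.347), whose tags are all tied and count as 1 measurement. The order of libraries in miR-880 was nearly that of the 3p arm, with Thy1+ replicate 1 highest and both Thy1- libraries lowest.

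**Figure D5:**
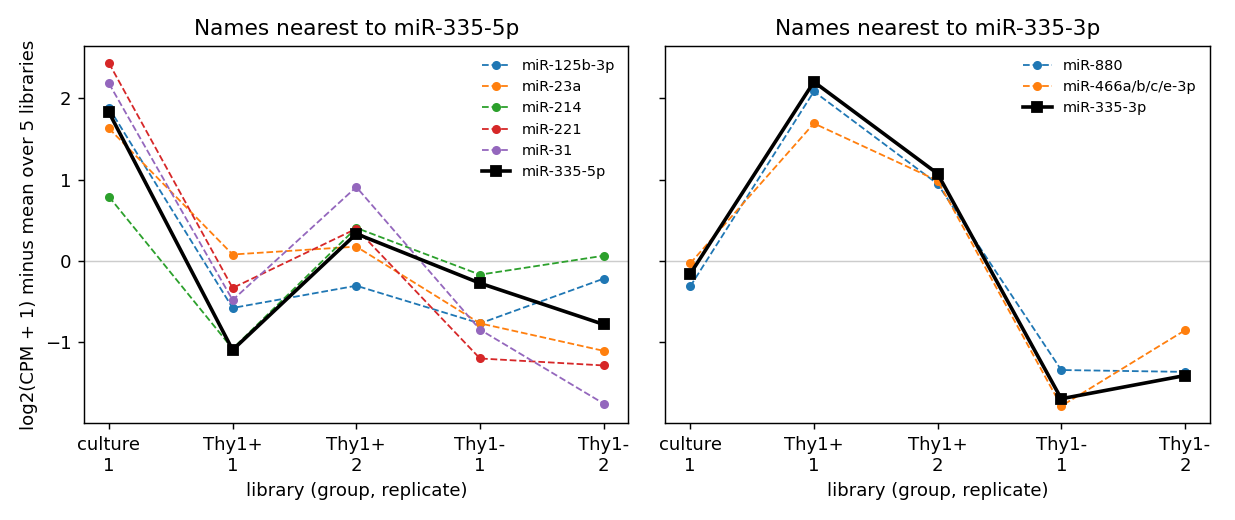
Centred patterns of miR-335-5p (left) and miR-335-3p (right), thick lines, with their nearest miRNA names, thin lines, as log2(CPM + 1) minus each name's mean over the 5 libraries. The 5p arm and its 5 nearest names are highest in culture, while the 3p arm and its nearest names are highest in Thy1+ replicate 1. The names were found over these same 5 libraries, so a shared highest library is no separate result.

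Other hairpins lie within 1 Mb of miR-335 on chromosome 6, all on the opposite strand. These are miR-182, miR-96 and miR-183, a cluster known from sensory organs, 572 to 575 kb away, and miR-29a and miR-29b-1, whose miRNAs repress collagen and other matrix messages, 321 to 322 kb away. All 8 of their names in the files were called higher in Thy1+ than in Thy1- cells by edgeR, where 20.5% of all names were called higher, and 0 names were called with either Thy1+ library left out. The 8 names come from 5 hairpins in the groups just named, some with both arms, so they are not separate observations. The median log2 fold change of the 8 names was 3.35, where the median over all names was -0.07. miR-182 had 16631 CPM in culture, 34213 and 33097 CPM in Thy1+ cells, and 2897 and 1026 CPM in Thy1- cells. miR-29a had 7029 CPM in culture, 5524 and 4001 CPM in Thy1+ cells, and 622 and 385 CPM in Thy1- cells. The 3p arm was higher in Thy1+ cells as well, and the 5p arm was not called. The mature miR-29b also comes from a hairpin elsewhere, and its count cannot be divided.

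A short list of other miRNAs of imprinted genes was set beside the arms, and it did not hold every such miRNA. The miR-466 3p group named above, from an intron of Sfmbt2, was outside the list. That group was called higher in Thy1+ than in Thy1- cells by edgeR (log2 fold change 2.09, adjusted p = 0.049). The listed miR-296, miR-298, miR-483 and miR-675 had 6 products in the files, of which 4 were tested. In Thy1+ against Thy1-, edgeR and DESeq2 each called 0 of them, with 1 at an unadjusted p under 0.05 in edgeR, and both tools called 0 in either culture comparison, with 0 at an unadjusted p under 0.05. miR-296-3p, from the imprinted Gnas region, had 175 CPM in culture, 1572 and 1111 CPM in Thy1+ cells, and 704 and 1416 CPM in Thy1- cells. From the maternally expressed Dlk1-Dio3 miRNAs, 9 names of miR-127, miR-136, miR-379, miR-410, miR-434 and miR-541 were listed, a chosen part of the products in the files. These 9 names summed to 792 CPM in culture, 25221 and 48992 CPM in Thy1+ cells, and 27696 and 30143 CPM in Thy1- cells. All 9 were called lower in culture against Thy1+ and against Thy1-, where 13.4% and 16.8% of all names were called lower, while edgeR and DESeq2 called 0 of 9 in Thy1+ against Thy1-, with 0 at an unadjusted p under 0.05. With either Thy1+ library left out, edgeR called 0 names in culture against Thy1+. miR-335-5p, from a paternally expressed gene, was higher in culture than in every fresh library, a level taken here to have set its choice. miR-335-3p, from the same hairpin, had 119 CPM in culture, below both Thy1+ libraries (618 and 282 CPM). It was above both Thy1- libraries (40.4 and 49.5 CPM).

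Markers of other cell types moved between the libraries too. The 6 white blood cell products of miR-142, miR-223, miR-155 and miR-150 summed to 937 CPM in culture, 14912 and 26552 CPM in Thy1+ cells, and 2017 and 1346 CPM in Thy1- cells. All 6 were called higher in Thy1+ than in Thy1- cells by edgeR, where 20.5% of all names were called higher, and 0 names were called with either Thy1+ library left out. miR-335-3p had 618 CPM in Thy1+ replicate 1 and 282 CPM in Thy1+ replicate 2. The 5 male germ cell products of miR-34b, miR-34c and miR-449a summed to 196527 CPM in culture, 106959 and 23757 CPM in Thy1+ cells, and 49559 and 8600 CPM in Thy1- cells. They were higher in replicate 1 of each fraction, and edgeR and DESeq2 called 0 of 5 between the fractions, with 0 at an unadjusted p under 0.05. In culture edgeR called 1 of 5 higher against Thy1+ and 3 of 5 higher against Thy1-, with median log2 fold changes of 3.17 and 3.92, where 8.94% and 18.1% of all names were called higher. DESeq2 called 3 of 5 and 4 of 5 higher.

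The 9 mesenchymal products of miR-143, miR-145, miR-199a, miR-199b and miR-214 summed to 65255 CPM in culture, 27471 and 38717 CPM in Thy1+ cells, and 46813 and 31360 CPM in Thy1- cells. Of these, miR-199a-3p and miR-199b had the same count in every library. They are 1 measurement, counted under both names in the culture calls below. None was at 0 in any library, and 5 of 9 were called higher in culture against Thy1+ and 3 of 9 against Thy1-, with median log2 fold changes of 2.22 and 1.05, beside the same shares of all names. With either Thy1+ library left out, culture against Thy1+ had 0 calls in all. Between Thy1+ and Thy1- cells edgeR called 0 of 9, with 1 at an unadjusted p under 0.05, and DESeq2 called 1 of 9, lower in Thy1+ cells. The gonadal somatic products of miR-202 summed to 173 CPM in culture, 1138 and 2205 CPM in Thy1+ cells, and 18584 and 3712 CPM in Thy1- cells, and both were called lower in Thy1+ than in Thy1- cells, where 7.76% of all names were called lower. The endothelial products of miR-126 summed to 562 CPM in culture, 1918 and 2605 CPM in Thy1+ cells, and 964 and 1678 CPM in Thy1- cells, with 0 of 2 called by edgeR or DESeq2 in any comparison and 0 at an unadjusted p under 0.05. The part of these cell type markers in the miR-335 levels was not tested.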

How the data were processed

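Small RNA reads of 5 libraries were available as sequence tags. Per the file headers and names, each deposited file gives raw read counts of distinct tags, the mature mouse miRNA of miRBase 12 on which the authors placed each tag, its position and up to 2 mismatches, without normalization. The submitters' processing notes name DESeq, with no version or role. For adapter removal, aligner and genome build, the sources used here give nothing.

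Each tag was assigned to its placement with the fewest mismatches, and tied tags were split equally. Read ends used reads whose letters matched their placement. Groups and replicate numbers came from the titles. Levels are CPM of a library's miRNA reads. Counts were tested in R 4.3.3 with edgeR 4.0.16 (TMM, filterByExpr, quasi-likelihood, two-sided), with Benjamini-Hochberg adjustment over all names tested and a threshold of 0.05. The Thy1+ against Thy1- fit held the 4 fresh libraries, and culture was compared in a fit of all 5, where its spread is assumed to be that of the fresh groups. The SE of a log2 fold change is its size divided by the root of F. Arm ratios were fitted with limma 3.58.1, shares were tested by exact permutation in scipy 1.17.1, and the hairpin was folded with RNAfold 2.7.2. Sequences and coordinates are RefSeq's of GRCm38.p6. The edgeR step was tested on simulated counts.

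The members and miRNA lists were chosen with earlier results of these data known. The named miRNAs were the members, the 5 nearest patterns to miR-335-5p, and names within 1 Mb or sharing a seed. Products of the short imprinted list were named, with leading names of the mesenchymal, white blood cell, endothelial, gonadal somatic, male germ cell and Dlk1-Dio3 lists. Alternatives were RLE and total scaling, no filter on low counts, tags without mismatch, tied tags left out, DESeq2 1.42.0, each library left out, a replicate block and, added after seeing the data, limma-voom.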

Additional observations from a re-analysis of the deposited data

How the results depend on the processing

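The 3p difference between Thy1+ and Thy1- cells kept its direction under all 12 alternatives (log2 fold change 1.91 to 3.38) and passed the threshold under 9, with adjusted p between 0.000402 (DESeq2) and 0.148. With either Thy1+ library left out it did not pass (range 1.91 to 3.38). The labels do not say that a replicate number marks a shared animal or batch. Over 425 names, the level deviations of same-numbered libraries had a Pearson's r of -0.0599, so the numbers were not taken to pair the libraries. Some measures nevertheless went with the number. The share of 5p starts at base 1 was lower in replicate 2 of both fractions. The median share of starts at base 3 over 189 names was higher in replicate 2 of both. The summed male germ cell products were higher in replicate 1 of both. With the replicate number as a block, miR-335-3p had 2.66 (adjusted p = 0.0634) and 32 names were called in place of 120. No paired analysis was possible for culture, whose single library shares fewer than 2 numbers with a fraction. The 5p value for Thy1+ against Thy1- was 0.30 under total scaling and -0.95 to 0.14 with 1 library left out, and passed no threshold under any of the 12. Culture against Thy1+ gave 2.04 for the 5p arm and -1.92 for the 3p arm under total scaling, and 3.26 to 4.13 and -1.18 to 0.52 with 1 library left out. Culture against Thy1- gave 2.34 and 1.40 under total scaling, and 3.20 to 3.38 and 1.97 to 2.76 with 1 library left out. Names called with 1 library left out numbered 0 to 138 for Thy1+ against Thy1-, 0 to 128 for culture against Thy1+ and 55 to 135 for culture against Thy1-. For culture against Thy1+, 0 without either Thy1+ library stood beside 145 and 120 names at an unadjusted p under 0.05 in edgeR, and total scaling called 173. The arm share difference ranged from -59.2 to -17.5 points with 1 library left out. Differences of the read ends ranged, with 1 library left out, from -6.14 to 3.13 points (5p end), -4.65 to 0.255 (3p end), -2.36 to 4.10 (5p start) and -1.65 to 0.338 (3p start). The 3p start difference was 0.212 on tags without mismatch. The cause of these changes was not tested.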
